A study of Mus musculus with 2 samples.

Results

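The ribosomal protein genes examined here were the genes whose symbols begin with Rpl, Rps or Rplp and a digit, together with Rpsa, after the kinase genes Rps6k and the binding protein gene Rps19bp1 had been left out. Of 32285 genes in the count tables, 90 fitted these symbols and 85 of them held at least 1000 UMIs (unique molecular identifiers, 1 per captured transcript) over both libraries. The 5 genes below the minimum were Rpl3l (70 UMIs), Rpl39l (42), Rpl9-ps1 (1), Rpl10l and Rpl36-ps4, for both of which no UMI was counted. The member nearest to the minimum was Rpl36a-ps1 with 1098 UMIs. The 85 members comprised 46 standard genes of the large subunit, 31 standard genes of the small subunit, 5 paralogs (Rpl7l1, Rpl22l1, Rpl36al, Rps27l and Rps27rt) and 3 genes named as pseudogenes (Rpl10-ps3, Rpl36a-ps1 and Rpl9-ps6). Fau, which encodes a ribosomal protein fused to a ubiquitin-like sequence, does not carry such a symbol and was read with the associated genes.

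Ribosomal proteins and ribosomal RNA build the small subunit, which decodes mRNA, and the large subunit, which joins amino acids. The proteins are needed in about equal numbers, and most of their mRNAs begin with a run of pyrimidines, the 5′ terminal oligopyrimidine tract, through which the kinase complex mTORC1 sets how many ribosomes translate them. In T cells, activation by antigen and growth are accompanied by the making of new ribosomes.

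Both libraries came from cells of C57BL/6 mice 8 to 12 weeks old that had entered tumours and were purified as regulatory T cells (Tregs, the Foxp3-positive CD4 lineage that restrains immune responses) by magnetic beads and a fluorescence sort. The WT library carries the genotype label JMJD1CWT and the cKO library the label JMJD1CTregcKO, a deletion of Jmjd1c, the gene of a JmjC-domain protein, in Tregs. The labels do not name the tumour, the number of animals, the Cre driver or the deleted exons, and there is 1 library per genotype, so no difference below has a replicate check or a test. Every interval is a 95% interval for counting error only.

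After removal of barcodes with under 500 genes or with 10% or more mitochondrial UMIs, 3842 of 3905 WT and 4026 of 4105 cKO barcodes remained, with medians of 9088 and 6953 UMIs, and 2 barcode sequences occurred in both libraries. Xist, the RNA of the inactive X chromosome, was counted in 97.1% of WT and 0.273% of cKO cells, so sex and genotype cannot be told apart. Jmjd1c stood at 88.0 CPM (a gene's UMIs summed over the cells of a class and scaled to the class total) in WT and 74.2 CPM in cKO Treg cells, and as tags of the 3′ end may lie outside the deleted part, this does not check the labels. Cells were classed by summed UMIs: Treg by 6 or more of Foxp3, Il2ra, Ikzf2 and Ctla4 with at most 2 of Lyz2 and C1qa, CD8 T by 3 or more of Cd8a and Cd8b1, NK by 2 or more of Ncr1 and Klrb1c with none of Cd3e, and myeloid by 10 or more of Lyz2 and C1qa. Cells that met more than 1 rule (179 in WT, 211 in cKO) or none (179 and 353) were left out. In the Treg class Foxp3 stood at 36.3 and 59.0 CPM and Cd8a at 0.600 and 1.45 CPM in WT and cKO. The summed 8 myeloid markers stood at 50.5 and 133 CPM and the summed 6 NK markers at 29.9 and 182 CPM. The NK sum was mainly Xcl1 in WT (22.9 CPM, 7.62 in cKO) and mainly Gzma in cKO (165 CPM, 5.08 in WT). The part of these myeloid and NK transcripts in the ribosomal protein values was not tested.

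Ribosomal protein transcripts took a smaller share of the transcriptome in cKO than in WT Treg cells. Summed over cells, the 85 genes held 24.9% of UMIs (24.93 to 24.96) in 3346 WT Treg cells and 19.8% (19.76 to 19.79) in 2913 cKO Treg cells, a log2 ratio of -0.34 (-0.337 to -0.333), so that the cKO share was 79.3% of that of WT. The median share per cell was 23.6% in WT, with quartiles of 20.4% and 27.2%, and 18.1% in cKO, with quartiles of 14.6% and 22.0%. The cells of the libraries therefore overlapped widely. Within a library the SD over Treg cells was 5.10 percentage points in WT and 5.53 in cKO, against 0.477 and 0.513 expected from counting alone at the pooled share and the cells' own depths. The median Treg cell held 2046 ribosomal protein UMIs and 6660 other UMIs in WT, and 1165 and 5278 in cKO. Both kinds of count were thus lower in cKO, the ribosomal protein UMIs by the larger factor. The summed large-subunit genes stood at 1.29 times the small-subunit genes in WT and at 1.32 times in cKO.

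**Figure D1:**
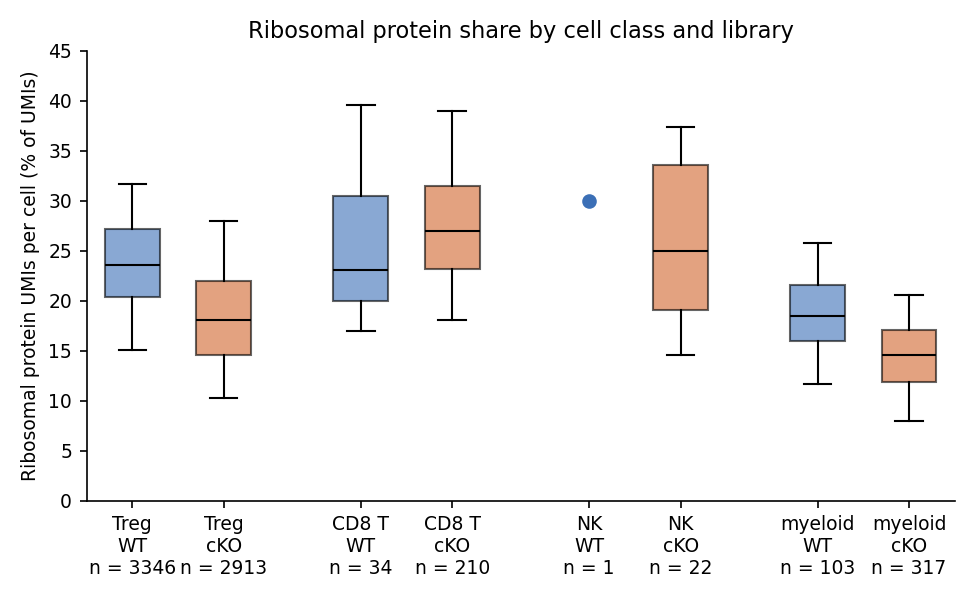
Share of UMIs from the 85 ribosomal protein genes per cell (y axis, % of a cell's UMIs) in 4 cell classes of the WT (blue) and cKO (orange) libraries. Boxes span the quartiles with the median as a line, whiskers span the 5th to the 95th percentile of cells, and the point is the only WT NK cell; the medians of Treg (23.6% and 18.1%) and myeloid cells (18.5% and 14.5%) were lower in cKO.

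Depth moved with the share. Across Treg cells, Spearman's rho between the share and a cell's UMIs was 0.35 in 3346 WT and 0.32 in 2913 cKO cells, a description in which both measures come from the same cell's counts. Treg cells with under 5000 UMIs had shares of 20.6% in WT and 16.9% in cKO (log2 ratio -0.29), those with 5000 to 10000 UMIs 22.8% and 18.4% (-0.31), those with 10000 to 20000 UMIs 24.9% and 20.9% (-0.25), and those above 27.1% and 23.3% (-0.22). The share was lower in cKO in each of the 4 depth bands. It was also higher in each deeper band of both libraries.

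The transcript state of the cells moved with the share as well. Treg cells were split by 4 or more UMIs per 10000 of a list of resting genes that includes S1pr1, Klf2 and Ccr7, of effector genes (Gzmb, Lag3, Il10) or of cycling genes (Mki67, Top2a, Birc5, Cenpf), cycling cells being set apart first. Cells with resting genes only had shares of 26.1% in WT and 23.9% in cKO (log2 ratio -0.13), and cells with neither list had 25.2% and 23.3% (-0.12). Lower shares were found in cells with effector genes only, 22.3% and 18.9% (-0.24), and in cells with both lists, 21.2% and 18.2% (-0.22). Cycling cells had 25.8% and 21.0% (-0.29). The libraries filled these states unequally: cells with effector genes, alone or with resting genes, made up 18.9% and 6.37% of WT against 44.6% and 31.7% of cKO Treg cells, and cells with neither list 42.1% of WT against 5.87% of cKO. With equal weight for each of the 5 states, a choice made after seeing the data, the log2 ratio of the share was -0.20 in place of -0.34. The share was lower in cKO within all 5 states.

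**Figure D2:**
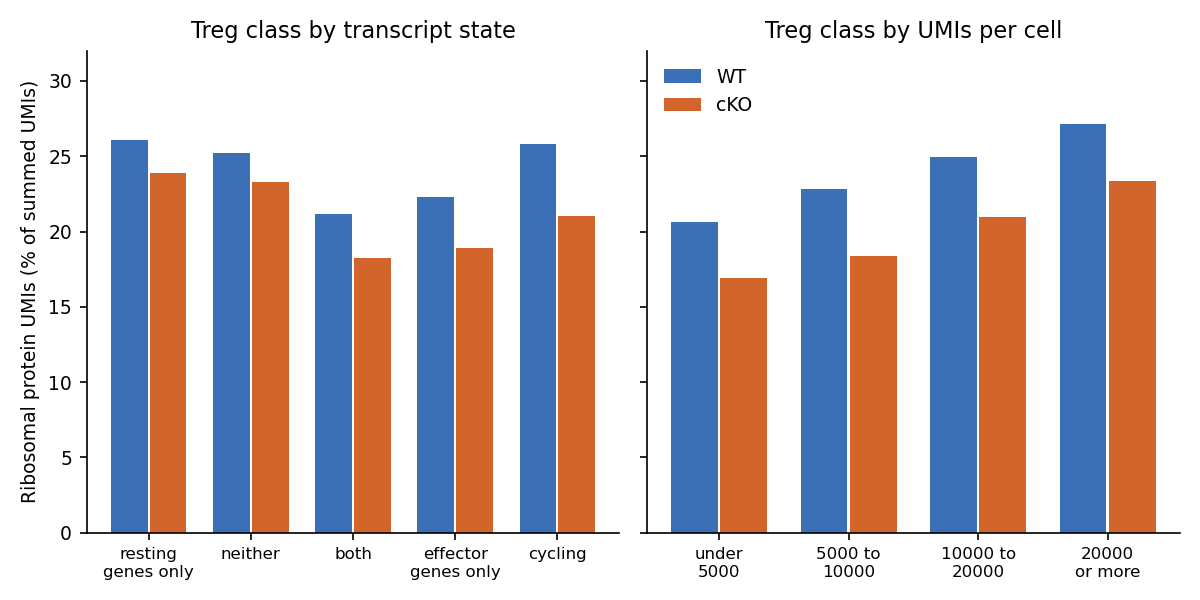
Share of summed UMIs from ribosomal protein genes (y axis, %) in Treg cells of WT (blue) and cKO (orange), split by transcript state (left) and by UMIs per cell (right). Each bar is 1 library's sum without replicate, and the cKO bar is lower in each of the 9 pairs, with the smallest difference on the log2 scale in cells with neither list (23.3% against 25.2%) and the largest in cells of 5000 to 10000 UMIs (18.4% against 22.8%).

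The difference was not spread evenly over the members. For each gene 5 CPM was added to both levels before the log2 ratio of cKO over WT was taken. The ratios ranged from -1.37 to 0.07 with a median of -0.32, while the median over the 5158 genes whose mean level reached 20 CPM was 0.02. Of the 85 members 82 lay below 0, 22 were at least 1.5-fold lower in cKO (25.9%) and 0 at least 1.5-fold higher. Over all 5158 genes 3.88% were 1.5-fold lower and 5.58% 1.5-fold higher. All members but Rpl36a-ps1 reached 20 CPM. The threshold fell between Rpl28 (-0.59), the last of the 22, and Rpl36a (-0.58). As a share of ribosomal protein UMIs in place of all UMIs, 9 members were 1.5-fold lower, 40 lay below and 45 above 0, and the median over all genes was 0.35. With TMM or median-of-ratios scaling 79 and 78 members lay below 0 and 19 were 1.5-fold lower in each case.

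Together the 22 lower members held 4.72% of UMIs in WT and 2.69% in cKO Treg cells, a log2 ratio of -0.81. The other 63 members held 20.2% and 17.1%, a ratio of -0.24, so the share was lower in cKO without the 22 as well. The 2 subunits contributed alike in these counts. Of 46 standard large-subunit genes 10 were 1.5-fold lower (median -0.31; summed share 13.9% in WT and 11.1% in cKO), and of 31 standard small-subunit genes 9 were (median -0.32; 10.8% and 8.43%). Among the 22 were Rpl4, Rpl5, Rpl10, Rpl12, Rpl13a, Rpl23a, Rpl26, Rpl28, Rpl31, Rplp2, Rps6, Rps12, Rps14, Rps15, Rps18, Rps23, Rps25, Rps26, Rps27rt, Rpl10-ps3 and Rpl36a-ps1.

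**Figure D3:**
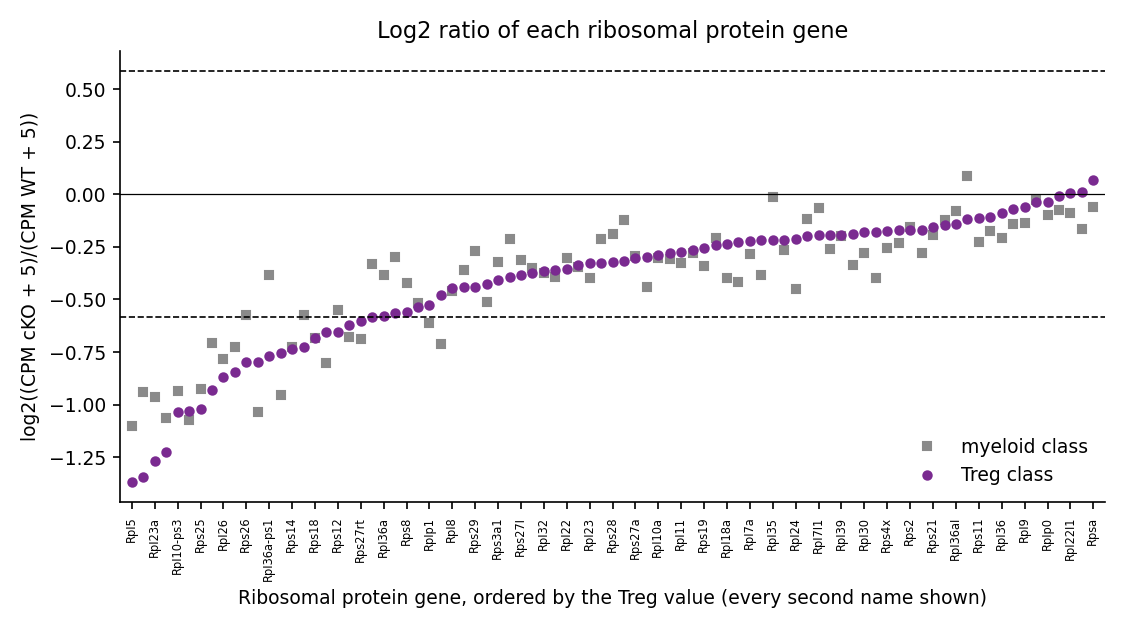
Log2 ratio of cKO over WT (y axis, with 5 CPM added to each level) for each of the 85 ribosomal protein genes, ordered along the x axis by the value in Treg cells (purple circles), with the value in myeloid cells (grey squares). Dashed lines mark 1.5-fold; the Treg values run from -1.37 for Rpl5 to 0.07 for Rpsa, and both classes come from the same 2 libraries.

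Among large-subunit genes the lowest ratio belonged to Rpl5 (ENSMUSG00000058558, chromosome 5, 107900502 to 107909005, plus strand, mm10), whose protein carries 5S ribosomal RNA into the subunit together with Rpl11 and can bind the p53 ligase Mdm2. Rpl5 stood at 1572 CPM in WT and 607 CPM in cKO Treg cells, a log2 ratio of -1.37 (-1.40 to -1.35), or 38.6% of WT. Its ratio lay between -1.25 and -1.03 in the 5 Treg states. Rpl5 was thus lower in cKO in every state, by more than 2-fold.

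Rpl23a (chromosome 11, 78180932 to 78183584, minus strand), which lies at the exit of the peptide tunnel where the signal recognition particle docks, stood at 1617 CPM in WT and 669 CPM in cKO (-1.27, interval -1.30 to -1.25). Its ratio ranged from -1.16 to -1.07 over the 5 states. Rpl10 (chromosome X, 74270812 to 74273135, plus strand), a protein that joins the large subunit late in its maturation, stood at 1862 and 975 CPM (-0.93, -0.95 to -0.91). Both were lower in cKO in each state, Rpl10 between -0.77 and -0.58.

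Among small-subunit genes Rps15 (chromosome 10, 80292453 to 80294114, plus strand), a protein of the head of the subunit near the decoding site, stood at 1878 CPM in WT and 800 CPM in cKO (-1.23, -1.25 to -1.21). Its ratio ranged over the states from -1.19 to -0.99. Rps15 was lower in cKO in each state.

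Rps6 (chromosome 4, 86854660 to 86857412, minus strand) encodes the substrate by which the activity of S6 kinase is commonly read. It stood at 1868 CPM in WT and 911 CPM in cKO Treg cells (-1.03, -1.06 to -1.01). Rps25 (chromosome 9, 44407139 to 44410427, plus strand), known for its role in internal ribosome entry, stood at 1558 and 765 CPM (-1.02, -1.050 to -1.002). Both lay below -0.65 in all 5 states. Over all 85 members 55 were lower in cKO in each of the 5 states and 2, Rpsa and Rpl29, were higher in each. The median of the 85 ratios ran from -0.10 in cells with neither list and in cells with resting genes only to -0.27 in cycling cells, while the median over all genes lay between 0.00 and 0.03. At least 1.5-fold lower were 12 members in cells with neither list (5.5% of all genes there), 14 in cells with resting genes only (5.63%), 15 in cells with both lists (5.37%), 17 in cells with effector genes only (4.52%) and 17 in cycling cells (3.21%). In each state 0 members were 1.5-fold higher, where in the same order 5.52%, 5.88%, 5.09%, 4.19% and 5.37% of all genes were.

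At the other end of the order the levels summed over all Treg cells were nearly equal. Rpsa (chromosome 9, 120127689 to 120132369, plus strand), a small-subunit protein also described as a laminin receptor, stood at 5040 CPM in WT and 5290 CPM in cKO Treg cells, 0.07 (0.06 to 0.08) on the log2 scale. Rpl19, which forms a bridge between the subunits, stood at 4111 and 4135 CPM (0.01, with an interval from -0.003 to 0.020). Rpl22l1, the paralog of Rpl22, stood at 755 and 757 CPM (0.01, -0.02 to 0.03). Counting error covered the difference for Rpl19, Rpl22l1 and Rpl18 (-0.01, -0.02 to 0.01) but not for Rpsa. Rplp0 (-0.04), Rpl29 (-0.04), Rpl9 (-0.06) and Rpl38 (-0.07), a protein linked to the translation of Hox mRNAs, completed the 8 highest members. In all, 3 members lay above 0 with CPM, 6 with TMM and 7 with median-of-ratios scaling, so the sign of the members nearest 0 depends on the scaling. Depth moved some of them further. In cells of 5000 to 10000 UMIs the ratios were 0.33 (0.32 to 0.35) for Rpsa, 0.25 (0.23 to 0.27) for Rplp0, 0.23 (0.18 to 0.28) for Rpl22l1 and 0.089 (0.065 to 0.113) for Rpl18, all higher in cKO beyond counting error. Those of Rpl19 (0.032), Rpl29 (0.011), Rpl9 (-0.057) and Rpl38 (-0.15) were smaller or below 0.

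**Figure D4:**
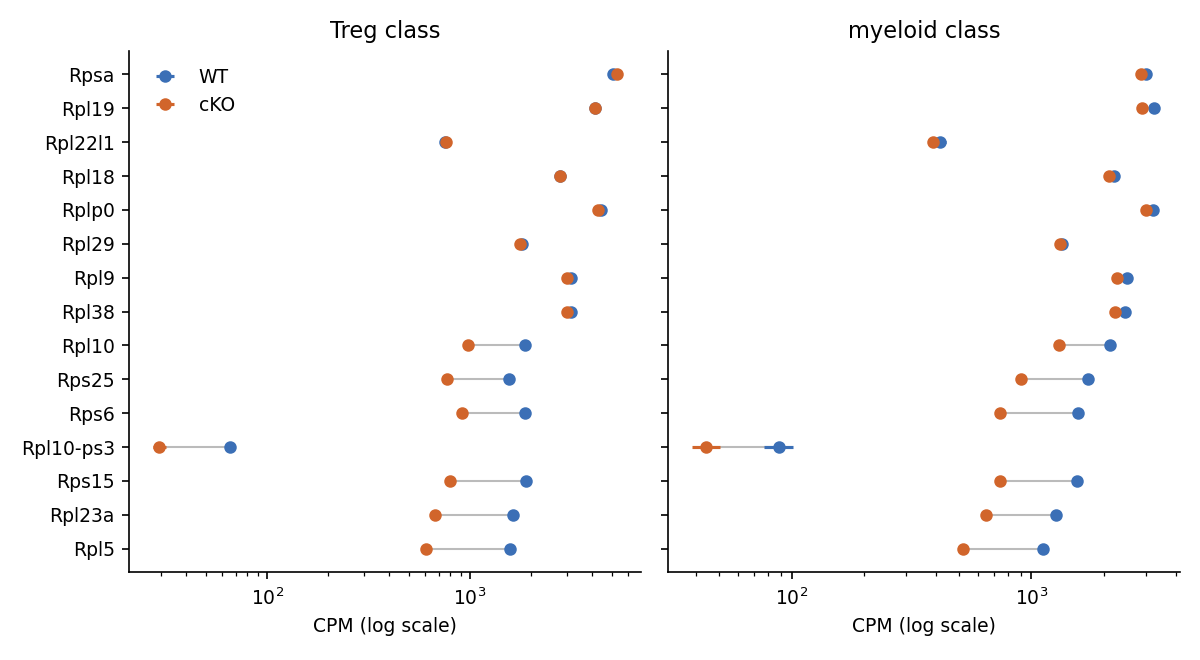
Levels (x axis, CPM on a log scale) of the 8 members with the highest and 7 of the 8 with the lowest log2 ratio in Treg cells, in WT (blue) and cKO (orange), for Treg cells (left) and myeloid cells (right). Bars, where wider than the point, are exact Poisson 95% intervals; Rpl5 lies at 1572 and 607 CPM in Treg cells, and Rpsa at 5040 and 5290 CPM.

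The 3 stalk genes differed from each other. The stalk is the arm of the large subunit that recruits elongation factors, with Rplp0 as its base and pairs of Rplp1 and Rplp2 bound to it. Rplp0 stood at 4392 CPM in WT and 4285 CPM in cKO Treg cells. Rplp1 stood at 5082 and 3532 CPM (log2 ratio -0.52, -0.54 to -0.51) and Rplp2 at 3128 and 1892 CPM (-0.72, -0.74 to -0.71). Rplp2 was past 1.5-fold, and the ratio of the base, -0.04 (-0.05 to -0.02), was much smaller than those of its partners and turned to 0.25 in cells of 5000 to 10000 UMIs. Over the 5 states the ratio of Rplp1 lay between -0.51 and -0.30, that of Rplp2 between -0.65 and -0.52 and that of Rplp0 between -0.06 and 0.25.

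Paralogs are extra copies that can take the place of a standard protein or act apart from it. Rps27rt was 1.5-fold lower, at 203 CPM in WT and 132 CPM in cKO (-0.60), beside -0.22 for Rps27 at 3934 and 3380 CPM. The ratio of Rps27rt missed 1.5-fold with TMM (-0.56) and median-of-ratios scaling (-0.55) and was -0.87 in cells of 5000 to 10000 UMIs. Rps27l, a target of p53, stood at 355 and 271 CPM (-0.39), but its ratio was -0.081 (-0.165 to -0.001) in cells of 5000 to 10000 UMIs. Rpl7l1, which acts in the making of ribosomes, stood at 55.5 and 47.8 CPM (-0.20), and Rpl36al at 795 and 721 CPM (-0.14). The 4 X-linked members, of interest because the libraries differ in sex, had a median of -0.38: Rpl10 as given, Rpl36a at 1471 and 984 CPM (-0.58), Rpl39, a protein of the tunnel wall, at 4548 and 3982 CPM (-0.19), and Rps4x, at 2966 and 2625 CPM (-0.18, and -0.11 in cells of 5000 to 10000 UMIs). Rpl10 was the only 1 of the 4 past 1.5-fold, and the part of sex was not tested.

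Copies with near-identical sequence make some of these counts uncertain, because a read from the shared part fits more than 1 gene. The pairs below show how little separates them. The last 60 coding bases before the stop codon (bases 583 to 642 of 642) are the same in Rpl10 and in Rpl10-ps3 (chromosome 9, 50344201 to 50344968, minus strand), with 0 mismatches over the whole coding sequence, and the same holds for bases 193 to 252 of 252 in Rps27 and Rps27rt. For Rpl36a and Rpl36a-ps1, whose 318 coding bases have 7 mismatches (97.8% identity), coding bases 80 to 139 are shown with the 5 mismatches of this window in capitals. The sequences are from the GENCODE M21 transcripts of mm10, 5′ to 3′.
Rpl10 and Rpl10-ps3: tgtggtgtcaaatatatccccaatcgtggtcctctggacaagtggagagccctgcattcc
Rps27 and Rps27rt: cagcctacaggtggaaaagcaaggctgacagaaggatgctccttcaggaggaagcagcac
Rpl36a: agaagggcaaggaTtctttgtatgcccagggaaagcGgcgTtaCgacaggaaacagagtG
Rpl36a-ps1: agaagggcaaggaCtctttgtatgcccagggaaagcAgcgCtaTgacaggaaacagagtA
In Treg cells Rpl10-ps3 stood at 65.5 CPM in WT and 29.4 CPM in cKO (-1.03, beside -0.93 for Rpl10), and Rpl36a-ps1 at 15.7 and 7.12 CPM (-0.77, beside -0.58 for Rpl36a). Rpl9-ps6, with 1 mismatch to Rpl9 in 576 coding bases, stood at 58.0 and 37.6 CPM (-0.57, beside -0.06 for Rpl9). All 3 copies named as pseudogenes are annotated as protein coding in GENCODE M21. How many such reads were left out of the counts or given to 1 copy is not stated in the sources used here. These values are uncertain to that extent.

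The start sites were read because mTORC1 acts on these mRNAs through a pyrimidine run at their first bases. In the 30 bases around the RefSeq start (15 before and 15 after it, sense strand), 27 of the 62 members found in RefSeq's promoter table (43.5%) held at least 8 letters C or T in a row, against 3760 of all 27025 genes (13.9%). Where a gene has more than 1 RefSeq start, the start with the longest run was taken, for members and for all genes alike. Among the 62 members the run was found in 8 of 17 of those 1.5-fold lower (47.1%) and in 19 of 45 others (42.2%). The windows below, 5′ to 3′ with the longest run in capitals, are from 3 of the lowest and 3 of the highest members in Treg cells. Long runs occurred in windows at both ends of the order. A run was counted anywhere in a window, so it need not lie at the first bases of the mRNA. In Rpl5, Rps15 and Rpl19 the longest run lies wholly in the 15 bases before the RefSeq start.
Rpl5 (GRCm38.p6 chr5:107900513-107900542, plus strand): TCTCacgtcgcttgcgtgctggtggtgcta
Rps15 (chr10:80292416-80292445, plus strand): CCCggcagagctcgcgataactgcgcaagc
Rps6 (chr4:86857353-86857382, minus strand): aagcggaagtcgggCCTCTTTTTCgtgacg
Rpl22l1 (chr3:28805493-28805522, plus strand): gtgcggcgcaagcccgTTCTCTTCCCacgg
Rpl19 (chr11:98026909-98026938, plus strand): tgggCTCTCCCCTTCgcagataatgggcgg
Rpsa (chr9:120127751-120127780, plus strand): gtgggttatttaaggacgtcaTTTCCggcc
The longest run had 10 letters in Rps6, a low member, and 10 and 11 in Rpl22l1 and Rpl19, 2 members at the high end of the order. Rpl5, Rps15 and Rpsa had runs of 4, 3 and 5. The runs of Rpl5 and Rps15 begin at the first base of the window, so they may be longer than shown. Every window shown misses the first base of the GENCODE gene. That base is at 107900502 for Rpl5, 80292453 for Rps15 and, on the minus strand, 86857412 for Rps6. It is at 28805436 for Rpl22l1, 98026710 for Rpl19 and 120127689 for Rpsa. A RefSeq start can lie away from the start used in these cells, so a run, short or long, describes its window only.

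Other properties of the gene models were described for the 22 lower and the 63 other members, with no test. The median number of exons was 5 in each, the median spliced length 820 and 886 bases, and the median GC content of the last 400 bases 47.1% and 47.8%. The share of 60-base words in those last 400 bases that occur in another annotated gene had medians of 50.9% and 54.5%. The last exon had medians of 325 bases in the lower and 194 bases in the other members. Its ranges overlapped, with 63 to 1109 bases in the lower and 65 to 4822 bases in the other members. Across the 85 genes, which are not independent replicates, Spearman's rho with the Treg ratio was 0.12 for exons, 0.06 for spliced length, -0.04 for the last exon, 0.18 for GC content and -0.06 for shared words.

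Myeloid cells, which the deletion is not meant to reach, also held a smaller ribosomal protein share in cKO. It was 19.2% of UMIs in 103 WT cells and 15.1% in 317 cKO cells, a log2 ratio of -0.35 (-0.355 to -0.345), with medians per cell of 18.5% (quartiles 15.98% and 21.5%) and 14.5% (11.9% and 17.1%). The median depth was 20622 and 13633 UMIs. Among cells of 5000 to 10000 UMIs, 7 in WT and 64 in cKO, the ratio was -0.053. In both libraries the myeloid share was below that of Treg cells, by -0.37 in WT and -0.39 in cKO on the log2 scale. The myeloid class also held T cell transcripts. Summed Cd3d, Cd3e, Cd3g and Trac stood at 773 and 578 CPM (Treg class 3855 and 4387). Summed Treg markers, Foxp3 among them, stood at 2260 and 1853 CPM (Treg class 9415 and 13138). No cell can meet both the Treg and the myeloid rule, so mixed droplets were not left out on that ground. Their part in the myeloid values was not tested. Levels of myeloid markers differed between the libraries in both directions. In WT and cKO, Lyz2 stood at 5631 and 9136 CPM, Apoe at 3358 and 1942 CPM and C1qa at 1366 and 1201 CPM. The myeloid class was not split by state, and the part of its make-up in the share was not tested.

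By gene, 19 of 85 members were 1.5-fold lower in cKO myeloid cells, where 4.48% of 5133 genes were, and 0 were 1.5-fold higher, where 4.4% were. The median of the members was -0.33 and that of all genes 0.00. Because both classes come from the same 2 libraries, their values are given side by side and not as independent results. Rpl5 stood at 1113 CPM in WT and 517 CPM in cKO myeloid cells (-1.10) and Rpl23a at 1268 and 647 CPM (-0.97). Both genes, low in cKO Treg cells, were lower in cKO myeloid cells too. Rps15 stood at 1554 and 742 CPM (-1.06), Rps6 at 1561 and 740 CPM (-1.07) and Rps25 at 1719 and 904 CPM (-0.92). Rpl41, which encodes a very short protein, was the only member above 0, at 4610 and 4905 CPM (0.09), and Rpsa had a ratio of -0.06.

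In the CD8 T class the direction depended on which cells were counted. The share was 24.9% in 34 WT cells (median per cell 23.1%, median depth 14224 UMIs) and 27.3% in 210 cKO cells (26.96%, 7643 UMIs), a log2 ratio of 0.13 (0.12 to 0.14). The 34 WT cells went partly against their class: the summed T cell markers Cd3d, Cd3e, Cd3g and Trac stood at 1456 CPM against 4045 CPM in cKO, while Fcer1g of myeloid cells stood at 536 against 59.4 CPM and Ighm of B cells at 617 against 60.9 CPM. With at least 2 UMIs of the Cd3 genes, a condition added after seeing the data, 17 WT cells with 29.7% and 205 cKO cells with 27.5% remained, and the ratio was -0.11. With cells counted in every class whose rule they met, 213 in WT and 407 in cKO, the ratio was -0.091, and among cells of 5000 to 10000 UMIs, 9 and 115, it was -0.062. No direction for the share in CD8 T cells can be read from these libraries.

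Single genes of the CD8 T class are given with this limit. Of 85 members 12 were 1.5-fold lower in cKO (14.1%), below the 23.4% of 5293 genes, and 2 were higher (2.35%), where 15.1% of genes were. Rpl31, whose protein also lies at the tunnel exit and which was named after its value was seen, stood at 2271 CPM in WT and 717 CPM in cKO (-1.66, -1.78 to -1.55), against 834 and 462 CPM (-0.85) in Treg cells. Rpl5 stood at 1445 and 788 CPM (-0.87) and Rpl10 at 2956 and 1496 CPM (-0.98). These 3 genes were lower in cKO in both classes. The 2 higher members were Rpsa, at 3664 and 6564 CPM (0.84), and Rplp0, at 3683 and 5737 CPM (0.64).

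NK cells were too few for a comparison. A single WT cell with 11709 UMIs held a share of 29.95% (29.1 to 30.8), and 22 cKO cells held 29.1% (28.97 to 29.3) with a median per cell of 24.97%, which gives a log2 ratio of -0.04 (-0.09 to 0.01). The cKO NK cells ranged from 11.1% to 41.4%, on both sides of the WT cell. In this class 14 members were 1.5-fold lower and 12 higher, where 49.2% and 33.5% of 4316 genes were. Rpl5, Rpl23a, Rps15, Rps6 and Rpl10-ps3 were at least 1.5-fold lower in cKO in all 4 classes, but in the WT NK cell they rest on 2 UMIs (Rpl10-ps3) to 39 UMIs (Rpl5).

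Within the ribosomal protein pool, some members took different parts in Treg and in myeloid cells of both libraries. The genes were those with the largest difference between the classes in the same direction in both libraries, so these values chose them and are a description. Rps27l made up 0.142% of ribosomal protein UMIs in WT and 0.137% in cKO Treg cells against 0.221% and 0.226% in myeloid cells, log2 differences of 0.64 and 0.72. Rpl36al made up 0.319% and 0.365% in Treg against 0.458% and 0.551% in myeloid cells. Rps15a, a small-subunit protein, went the other way, with 2.34% and 2.19% in Treg against 1.59% and 1.42% in myeloid cells. Rpl10 made up 0.746% of the pool in WT and 0.493% in cKO Treg cells against 1.11% and 0.864% in myeloid cells, and the differences of Rpl7l1 (0.58 and 0.74) and Rpl10-ps3 (0.82 and 0.98) were also toward myeloid cells.

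Genes that act with the ribosome did not all differ as the ribosomal proteins did. The counts below stand beside 3.88% of all genes 1.5-fold lower and 5.58% higher in cKO Treg cells, and in lists this short 1 gene is not apart from that background. Among 7 ribosome-associated and fusion genes, 1 was 1.5-fold lower (median -0.21). This was Rack1, a scaffold on the small subunit, at 1952 CPM in WT and 925 CPM in cKO (-1.07), and it had a ratio of -0.84 in myeloid cells. Tpt1, an abundant mRNA that also begins with a pyrimidine run, stood at 8583 and 5763 CPM (-0.57). Among 9 snoRNA host genes, which carry small nucleolar RNAs in their introns, 1 was 1.5-fold lower (median -0.37), Zfas1 at 138 and 73.8 CPM (-0.86). Translation factors lay closer to equality. Of 7 elongation factor genes 0 were 1.5-fold apart (median -0.02), with Eef1g at -0.54 and Eef1b2 at -0.52, and of 29 initiation factor genes 1 was lower (median -0.06), the X-linked Eif2s3x at 51.7 and 28.0 CPM (-0.78).

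Genes that make cytoplasmic ribosomes had a median of -0.20 over the 25 of 38 with at least 20 CPM, with 2 lower past 1.5-fold, Gnl3 at 37.3 and 22.4 CPM (-0.63) and the X-linked Dkc1 at 33.1 and 20.3 CPM (-0.59), beside 3.88% of all genes. Mitochondrial ribosomal protein genes, a separate family for the organelle's own ribosome, had 0 of 68 past 1.5-fold in either direction (median -0.08). In the list of mTORC1 and Myc control 3 of 12 were 1.5-fold higher in cKO and 0 lower (median 0.03). These were Max, the partner of Myc, at 52.8 and 98.7 CPM (0.84), Myc at 16.6 and 32.8 CPM (0.81), and Rheb, the activator of mTORC1, at 124 and 197 CPM (0.65). Against the 5.58% of all genes that were 1.5-fold higher, the count in so short a list is a description only.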

How the data were processed

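Single-cell 3′ libraries (10x Genomics) were made from 1 WT and 1 cKO sample. The deposited matrices are unnormalized UMI counts for each gene in each barcode, made by the authors with Cell Ranger 5.0.1 on mm10, per the submitters' processing notes and the file headers. The sources used here do not give the annotation release, the handling of intron reads, or filters and doublet removal before deposit. Samples were grouped by the genotype label.

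Cells with at least 500 genes and under 10% mitochondrial UMIs were kept, and no doublet caller was run; cells meeting more than 1 class rule were left out, and the deepest 5% of cells were left out as an alternative. UMIs were summed per class and library and scaled to CPM. Log2 ratios add 5 CPM; their intervals are exact conditional binomial without it, shares have exact Clopper-Pearson and levels exact Poisson intervals, all at 95% and for counting error only. With 1 library per group no test was made: a gene counts as 1.5-fold lower or higher by its log2 ratio alone, and percentages of all genes use those with a mean of at least 20 CPM. Named members were the 8 highest and 8 lowest ratios in Treg cells, members 1.5-fold apart in the same direction in 4 classes, the 6 with the largest pool difference between Treg and myeloid cells, and all stalk, X-linked and paralog members; other lists give up to 3 genes, of which not all are printed. Some genes under these rules are not reported here. Rpl28, Rpl31, Rpl41, Rps27 and the genes named as pseudogenes were added after their values were seen. The members, lists and classes were chosen with earlier results of these data known. Coordinates and coding sequences are from GENCODE M21 (mm10) and start sites from RefSeq (GRCm38.p6), where 62 of 85 members matched. Tools were numpy 2.4.6, pandas 2.3.3, scipy 1.17.1, edgeR 4.0.16 (TMM factors), DESeq2 1.42.0 (size factors) and matplotlib 3.10.9. The ratio calculation was tested on simulated data.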

Additional observations from a re-analysis of the deposited data

Results flagged for a closer look

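The log2 ratio of the ribosomal protein share, cKO over WT, had opposite signs in 2 classes of the same libraries, -0.3351 in Treg cells and 0.1326 in CD8 T cells. The difference between the classes was not tested, since each has 1 library per genotype. The CD8 T value rests on 34 WT cells with low levels of T cell markers, and its sign turned with at least 2 Cd3 UMIs per cell.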

How the results depend on the processing

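With 1 library per genotype the spread between animals is unknown, and intervals for counting error are so narrow that most settings moved a share ratio beyond them; the cause was not tested. In Treg cells the log2 ratio of the share stayed below 0 under every setting tried: -0.31 in cells of 5000 to 10000 UMIs, -0.30 with cells counted in every class whose rule they met, -0.35 without the deepest 5% of cells, -0.34 without cycling cells, -0.35 as a mean of shares per cell and, both added after seeing the data, -0.20 with equal weight of 5 states and -0.24 without the 22 lower members. In myeloid cells it was -0.36 with all barcodes, without globin-positive cells and without cycling cells, -0.37 without the deepest 5% and as a mean per cell, and -0.053 in cells of 5000 to 10000 UMIs, which hold 7 WT cells. In CD8 T cells it was 0.15 without the deepest 5%, 0.10 without globin-positive cells, 0.21 without cycling cells and 0.10 as a mean per cell, and it turned to -0.062 in the depth band, -0.091 with cells in every class and, as settings added after seeing the data, -0.11 with 2 or more Cd3 UMIs in cells of 1 class and -0.11 in cells of every class. In NK cells it was -0.14 without the deepest 5% and -0.19 as a mean per cell; the depth band holds no WT NK cell and gave no value. The count of members 1.5-fold lower in Treg cells was 22, lay between 19 and 24 elsewhere and was 9 as a share of ribosomal protein UMIs; it was 0 higher throughout. For the 26 named members 286 values under 11 settings were computed: 149 moved beyond counting error and 0 of those at least 1.5-fold apart changed sign. The largest shift was 0.34, as a share of ribosomal protein UMIs, and 0.30 among settings in CPM. Another scaling or denominator moves most members by nearly the same amount, so such moves are not separate results. No paired analysis was possible because each genotype has 1 library. Leaving out a replicate was likewise not possible.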
